A study of Mus musculus with 93 samples.

Results

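The cells described here carried the Tbx1-Cre red label (RFP+) and came either from mouse embryos or from precardiac spheroids grown from embryonic stem cells (ESCs). All wells that the labels name as Tbx1 RFP+ were taken, 4 from embryos and 46 from spheroids, together 50 of the 93 RNA-seq libraries of the series. The other 43 libraries were Hcn4-GFP+ wells. Each well held 10 cells sorted by fluorescence. Both groups carried the same 3 alleles, an Hcn4-GFP reporter, Tbx1-Cre and Ai9, a red reporter switched on for good by Cre. The embryo wells are titled E8.5, while the collection protocol gives E7.75, so the stage is taken only as E7.75 to E8.5. The spheroid cells were sorted at day 5.5 of differentiation, after induction by Activin A, Bmp4 or Wnt proteins, singly or mixed, and the mix used for each well is not given. The spheroids descend from 1 ESC line, and the labels do not tie wells to single embryos or to separate differentiations, so n counts wells and the p-values measure the spread between wells.

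Tbx1 encodes a T-box transcription factor of the pharyngeal mesoderm, endoderm and ectoderm, and its Cre marks the second heart field (SHF), the pool of progenitors that adds outflow tract and right ventricle to the heart tube. SHF progenitors lie next to paraxial mesoderm, pharyngeal endoderm and vessel progenitors, and they switch on sarcomere genes only as they join the heart. Because the Ai9 label is permanent, an RFP+ cell need not express Tbx1 at the time of sorting.

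Read totals were 1246546 to 1479957 counts in the embryo RFP+ wells and 445071 to 5658882 (median 1449700) in the spheroid RFP+ wells. In 7 rows of the plate, the spheroid wells in columns 3 and 4 resembled each other far more than any other wells (r of log2 values 0.948 to 0.987, against at most 0.932 for other pairs). Their counts were summed, which left 39 spheroid libraries. All levels below are CPM, the count of a gene scaled to 1000000 counts of the autosomal genes tested, with TMM factors between libraries. They are given for the embryo wells in the order F12, G11, G12 and H11 and for the spheroid libraries as the lowest, median and highest. Mean levels set beside those of GFP+ wells were scaled over the libraries of both populations. The embryo wells lay in plate columns 11 and 12 and the spheroid RFP+ wells in columns 1 to 6, so the source of the cells cannot be told apart from their place on the plate. In bulk wells of this kind, fewer cells of a type and less RNA per cell cannot be told apart either.

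The question asked was how the labelled cells of the embryo differ from those made in spheroids. In edgeR, with a threshold of 0.1 on the adjusted p-value, 4460 of 10604 autosomal genes tested differed (42.1%). Of these, 2121 were higher in embryo cells (20.0% of genes tested) and 2339 were lower (22.1%). The median log2 fold change of the called genes was 0.85 in size, and 29.5% of them changed by less than 1.5-fold. The embryo wells scattered more among themselves than the spheroid libraries did, with a biological coefficient of variation of 55.1% against 32.1%. When limma gave each group its own weight, 1983 genes passed (18.7%), 1223 higher (11.5%) and 760 lower (7.17%), and 1969 of these (99.3%) had passed in edgeR in the same direction. Counts from that fit are given beside each gene list. List counts are to be read against the shares of all genes tested, 20.0% higher and 22.1% lower in edgeR, and 11.5% and 7.17% with group weights. A test against a 1.5-fold change kept 659 higher (6.21%) and 741 lower (6.99%). With well F12, which contained globin reads, left out, 4135 of 10870 genes passed, 1887 higher (17.4%) and 2248 lower (20.7%). Well G12 was the least like the spheroid libraries (median r = 0.770, against 0.834 to 0.838 for the other 3 embryo wells) and had the fewest detected autosomal genes, 9865, against 11615 to 12538. The median log2 fold change over all genes tested was −0.04.

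The label was checked first. Tbx1 itself read 3.84, 3.71, 0 and 9.03 CPM in the embryo wells and 0, 2.21 and 7.87 in the spheroid libraries, with reads in 35 of 39 of them. These levels were too low for the edgeR fit, and they did not differ detectably (two-sided exact permutation test over the wells, adjusted p = 0.439). Six2, a homeobox gene of the pharyngeal mesoderm, read 13.1, 10.4, 15.4 and 24.1 CPM against 17.9, 37.8 and 64.9 in spheroids. Only well H11 reached the spheroid range, and Six2 was lower in embryo cells (log2 fold change −1.28 ± 0.25 SE, edgeR adjusted p = 6.6e-05). Meox1, a paraxial mesoderm gene, read 33.8, 24.5, 70.4 and 30.8 CPM against 17.4, 60.7 and 116, entirely within the spheroid range. Its difference (−0.64 ± 0.31, edgeR adjusted p = 0.0995) was lost without any of F12, G11 or H11. Of the 8 SHF and pharyngeal markers chosen for the check, 7 or 8 had reads in every embryo well and every spheroid library, and their summed levels were 334, 327, 317 and 385 CPM against 182, 241 and 370. At least 7 of these 8 markers were therefore detected in every library of both sources, though Tbx1 itself had no reads in G12 and in some spheroid libraries. Isl1 alone gave 104 to 194 CPM of the embryo sums.

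The leading genes in the embryo direction included muscle and pharyngeal genes. Of all genes tested, 278 (2.62%) lay higher in every embryo well than in any spheroid library, and 238 (2.24%) lay lower. The leading genes were the 12 of largest fold change per direction among called genes of at least 20 CPM whose 4 embryo wells all lay beyond the 5th or 95th percentile of the spheroid libraries, a condition met by 425 genes upward (4.01%) and 386 downward (3.64%). Ankrd1, a stretch-responsive cofactor of striated muscle, read 16.9, 111, 140 and 18.1 CPM and at most 3.93 in spheroids. Wells G11 and G12 stood well above F12 and H11, and none overlapped the spheroid libraries (log2 fold change 8.81 ± 0.46, edgeR adjusted p = 3.0e-23). Nkx2-6, a homeobox gene of the caudal pharynx and outflow tract progenitors, read 104, 94.2, 40.6 and 73 CPM, while its spheroid median was 0 and its highest spheroid value 6.15. The groups did not overlap (6.33 ± 0.50, edgeR adjusted p = 1.3e-15). Gata5, a zinc-finger factor of cardiac mesoderm and endoderm, read 39.2, 34.9, 24.4 and 24.1 CPM against a spheroid median of 0 and a highest value of 8.46 (5.52 ± 0.68, edgeR adjusted p = 2.3e-09). Tnc, a matrix glycoprotein of remodelling mesenchyme, read 83, 79.4, 41.5 and 82.8 CPM against at most 7.37, again without overlap (6.32 ± 0.50, edgeR adjusted p = 9.1e-16). The same group of 12 leading genes contained the gut peptide gene Pyy (43, 97.2, 132 and 103 CPM, at most 8.45 in spheroids) and Mylk3, the cardiac myosin light chain kinase (59.2, 60.1, 33.4 and 54.2 CPM, at most 7.83). Dpep1, a membrane dipeptidase, was higher in G12 (43.3 CPM) than in the other embryo wells (11.3 to 14.8), all above its highest spheroid value of 3.21. The remaining leading genes, Grb10, Ttn, Acta2, Myl4 and Cdkn1c, are described with their lists.

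The 12 leading genes in the spheroid direction were at or near 0 in the embryo wells. Cer1, a secreted antagonist of Nodal and Bmp ligands made in nascent mesoderm and anterior endoderm, had no count in any embryo well. It read 11, 81.3 and 250 CPM in spheroids. Set against the 3 counts per library that a zero allows, 2.37 CPM on average, it was at least 39.5-fold lower in embryo cells. T (Brachyury), the T-box factor of the primitive streak, had 1 count, in H11, and read 12.9, 58.1 and 118 CPM in spheroids, a 312-fold lower level with a 95% counting interval of 55.9 to 12320 that covers counting error only. Lgals3 and Gpnmb, genes linked to lysosomes and phagocytosis, and Fah, the last enzyme of tyrosine breakdown, had no embryo counts and were at least 11.7-fold, 10.1-fold and 10.7-fold lower. Gpnmb was also absent from at least 1 spheroid library, so its groups touch at 0. Stmn2, a microtubule regulator best known from neurons, read 1.54, 0, 0 and 2.26 CPM against 54.7, 130 and 304. Rspo3, a secreted enhancer of Wnt signalling, read 1.54, 6.68, 0 and 0 CPM against 11.4, 68.4 and 152. Both were clear of the spheroid range (log2 fold change −7.02 ± 0.58 for Stmn2, and edgeR adjusted p = 1.5e-07 for Rspo3). With group weights, only Fah (limma adjusted p = 0.014) and Stmn2 (0.089) of these 12 passed, whereas all 12 leading genes in the embryo direction did.

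**Figure D1:**
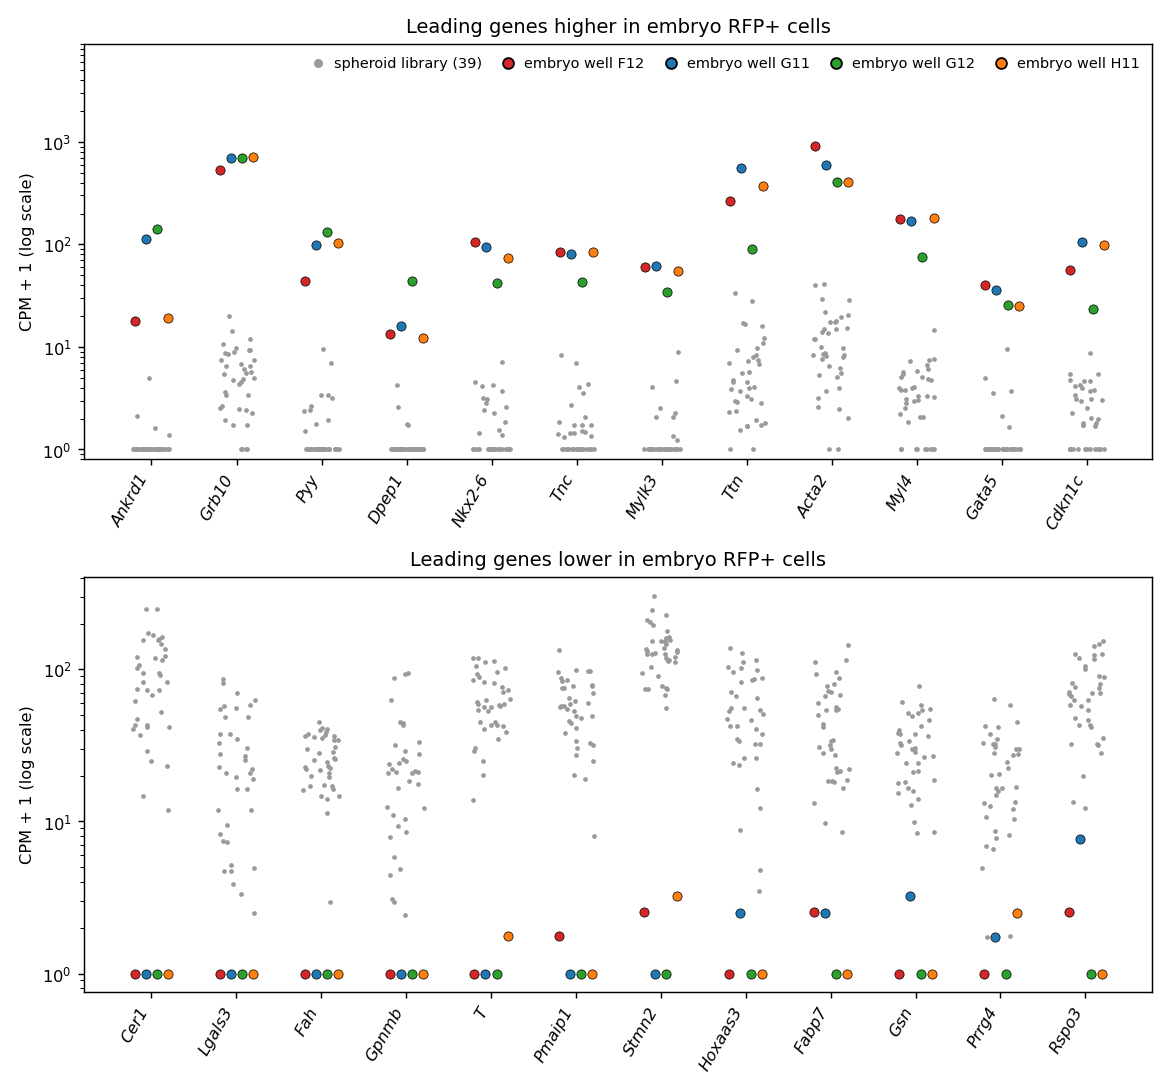
The 12 leading genes in each direction, with the level of each library as CPM + 1 on a log axis. Coloured points are the 4 embryo wells and grey points the 39 spheroid libraries; in the upper panel Grb10 sits between 525 and 717 CPM in embryo wells and at most 18.9 in spheroids, and in the lower panel Cer1 has no embryo count.

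Of the 33 lists examined, sarcomere genes had the largest share higher in embryo cells. All 17 tested members of the cardiac contractile list were higher in embryo cells, in edgeR and with group weights, and the median of their log2 fold changes was 4.59. In 12 of the 17 every embryo well was above every spheroid library, against 2.62% of all genes tested. All listed members, tested or not, summed to 4188, 3907, 2666 and 4145 CPM in the embryo wells against 466, 618 and 839 in spheroids. Actc1, the cardiac alpha-actin of the thin filament, read 585, 363, 303 and 338 CPM against 0, 18.2 and 59.8. Every embryo well was above every spheroid library (4.44 ± 0.28, 21.7-fold, edgeR adjusted p = 2.3e-19). Tnni1, the slow skeletal troponin I of the embryonic heart, read 422, 540, 426 and 529 CPM against 0.758, 14.8 and 48.9 (4.83 ± 0.27, edgeR adjusted p = 1.3e-21). Myl9, a regulatory light chain of smooth muscle and nonmuscle myosin, read 279, 337, 218 and 212 CPM against 3.93, 20 and 42 (3.74 ± 0.22, edgeR adjusted p = 1.5e-20). Ttn, the giant spring protein of the sarcomere, ranged from 89.4 CPM in G12 to 559 in G11, and Myl4, the atrial essential light chain, from 74.1 in G12 to 181 in H11. Their spheroid medians were 3.6 and 2.31 CPM, and neither overlapped. For scale, the sorted embryo Hcn4-GFP+ wells, 5 in number, summed to 26340 to 74744 CPM over the 17 tested genes, against 2607 to 4132 in the embryo RFP+ wells over the same genes, and the mean Actc1 level of embryo RFP+ wells was 2.66% of theirs. Over the 17 genes that share ranged from 2.46% for Ldb3, a Z-disc protein, to 24.9% for Myl9. The part of a few cardiomyocytes among 10 cells in these values was not tested.

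The smooth muscle and contractile cytoskeleton list followed in the same direction, with 12 of 17 tested genes higher and none lower in edgeR and with group weights (median 0.66). It shares Tpm1 with the cardiac list. Acta2, the smooth muscle alpha-actin that early heart muscle also expresses, read 910, 599, 401 and 405 CPM against 0, 7.74 and 39.7, a 52.4-fold difference without overlap (5.71 ± 0.32, edgeR adjusted p = 6.0e-22). Tagln, an actin-binding protein of smooth muscle, read 129, 222, 122 and 150 CPM against 0, 6.42 and 26.6 (4.33 ± 0.30). Cnn2, a calponin found widely outside muscle, read 459, 448, 372 and 353 CPM against 58.8, 140 and 197 (1.55 ± 0.13), so the groups were separate but the spheroid level was far from 0.

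Many muscle genes carry a CArG box near their start, the site bound by serum response factor. The 250 bases upstream of the RefSeq start (GRCm38.p6) were searched on both strands for the exact box. It was present in 6 of 25 cardiac contractile genes with a promoter in the RefSeq set (Actc1, Myl3, Myl7, Myl9, Ldb3 and Myom1), in 4 of 17 smooth muscle genes (Cnn2, Myl6, Vcl and Srf), and in 439 of 27025 genes in all (1.62%). A match is a description of these letters and not a measured binding site. The sequences of 3 contractile genes are printed to show the box, in capitals, and its setting: Actc1 (chr2:114052876-114053125, minus strand, box from −47 relative to the start), Myl7 (chr11:5898783-5899032, minus strand, from −61) and Myl9 (chr2:156775214-156775463, plus strand, from −161).
Actc1: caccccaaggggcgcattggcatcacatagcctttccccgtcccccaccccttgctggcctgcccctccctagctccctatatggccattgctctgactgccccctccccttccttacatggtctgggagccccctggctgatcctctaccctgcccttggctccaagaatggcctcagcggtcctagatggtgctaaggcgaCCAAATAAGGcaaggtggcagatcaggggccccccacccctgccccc
Myl7: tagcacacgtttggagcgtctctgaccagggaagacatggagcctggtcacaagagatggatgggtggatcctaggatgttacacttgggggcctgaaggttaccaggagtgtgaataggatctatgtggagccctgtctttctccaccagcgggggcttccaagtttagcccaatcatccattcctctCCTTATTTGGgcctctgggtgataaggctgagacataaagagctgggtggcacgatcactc
Myl9: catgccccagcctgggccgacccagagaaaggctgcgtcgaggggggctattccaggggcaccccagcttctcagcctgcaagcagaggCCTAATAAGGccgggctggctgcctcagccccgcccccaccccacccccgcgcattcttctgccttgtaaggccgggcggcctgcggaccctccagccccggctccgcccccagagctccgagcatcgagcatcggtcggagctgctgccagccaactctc

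SHF and pharyngeal mesoderm genes moved in both directions. Of 29 tested, 12 were higher and 10 lower in embryo cells (median 0.40), and 11 and 4 passed with group weights, where the median was −0.14. Isl1, the LIM-homeodomain factor of cardiac progenitors, read 194, 150, 104 and 159 CPM against 8.45, 25.2 and 49.8. Every embryo well was above the spheroid range (2.53 ± 0.22, 5.79-fold, edgeR adjusted p = 7.1e-14). Tcf21, a bHLH factor of pharyngeal and epicardial mesoderm, read 73.8, 147, 47.9 and 80.5 CPM against 0, 2.49 and 15.9 (4.47 ± 0.46, edgeR adjusted p = 1.0e-11). In the opposite direction, Sall4, a zinc-finger factor of stem cells and early mesoderm, read 116, 202, 119 and 190 CPM against 263, 364 and 479 (−1.24 ± 0.13). Foxc1, a forkhead factor of head and paraxial mesoderm, read 11.5, 11.9, 7.22 and 7.52 CPM against 21.1, 45.7 and 90.5 (−2.22 ± 0.31). Cxcr4, a chemokine receptor, read 3.07, 1.48, 3.61 and 0.752 CPM against 5.56, 12.3 and 31.1 (−2.64 ± 0.46, edgeR adjusted p = 8.5e-06). All 3 were below the spheroid range in every embryo well. Foxf1, a forkhead factor of splanchnic mesoderm, was higher in the fit (2.52 ± 0.70) but reached 33.1 CPM in H11 against 2.71 in G12, and its call was lost without H11.

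Among signalling lists, targets of Bmp differed in 1 direction. Of 12 tested, 6 were higher and none lower in edgeR and with group weights (median 0.89). Id3, an inhibitor of bHLH factors that Bmp induces directly, read 712, 1008, 803 and 689 CPM against 201, 401 and 689 (0.99 ± 0.14, edgeR adjusted p = 7.5e-08). H11 was only just above the highest spheroid library. Id2 (1.36 ± 0.21) and Id1 (1.02 ± 0.18) were also higher, though each overlapped the spheroid range. Retinoic acid genes gave 9 higher and 3 lower of 19 (median 0.48; 7 and 0 with group weights). Crabp2, which carries retinoic acid to its receptor, was higher (1.81 ± 0.22), and Cyp26a1, which degrades it, was lower in edgeR (−1.82 ± 0.52) but not with group weights (limma adjusted p = 0.47). Of 17 FGF and ERK targets, 4 were higher and 3 lower (23.5% and 17.6%, near the shares of all genes tested). Their median was −0.13, and 3 and 1 passed with group weights. The 3 lower ones, Egr1, Etv1 and Dusp4, differed by −2.44, −2.05 and −1.22 in mean log2 CPM, embryo minus spheroid. Etv5, an ETS factor downstream of FGF, read 138, 83.8, 107 and 129 CPM against 11.4, 27.4 and 57 (1.95 ± 0.20), and Dusp6, the ERK phosphatase, read 190, 205, 172 and 192 against 37.2, 84.2 and 155 (1.13 ± 0.19), both apart. Wnt targets gave 3 higher and 6 lower of 18 (median −0.33; 1 and 1 with group weights). The 3 higher ones, Bambi, Ccnd1 and Myc, differed by 1.49, 0.48 and 0.87 in mean log2 CPM, embryo minus spheroid. Lef1, a nuclear partner of beta-catenin and itself a Wnt target, read 35.3, 49.7, 18.1 and 42.9 CPM against 56.6, 101 and 214 (−1.53 ± 0.28), with every embryo well below. Of 12 Hedgehog genes 4 were higher and 1 lower (median 0.37; 2 and 1 with group weights, 4 and 2 without F12). Ptch1, the receptor that Hedgehog signalling induces, read 173, 177, 281 and 258 CPM against 46.2, 97.8 and 180 (1.09 ± 0.23). Notch genes gave 3 higher and 7 lower of 15 (median −0.43), and 0 and 3 with group weights. None was higher without G11 and 1 was without H11.

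Genes of the streak and of nascent and paraxial mesoderm ran the other way. Of 15 tested streak genes, 13 were lower in embryo cells and none higher, and 10 of the 15 had no count in any embryo well. Their median log2 fold change was −5.92 as fitted and −1.36 with the zero genes at their bound. The list summed to 11.5, 9.64, 0 and 19.6 CPM in the embryo wells against 97, 241 and 484 in spheroids, with no overlap, but none of its genes passed with group weights. Tbx6, the T-box switch of paraxial mesoderm, had no embryo count and read 0.913, 10.1 and 37.9 CPM in spheroids, at least 5.07-fold lower. Paraxial and somite genes gave 13 lower and none higher of 20 (median −1.15, −1.02 with zero genes at the bound; 5 lower with group weights). Twist1, a bHLH factor of mesenchyme and somites, read 16.1, 24.5, 12.6 and 27.8 CPM against 40.1, 64.7 and 173 (−1.69 ± 0.25, edgeR adjusted p = 3.4e-07). The Notch ligand Dll1 read 8.45, 0, 0 and 3.01 CPM against 2.09, 25.5 and 86.6 (−3.28 ± 0.69). Of 16 pluripotency genes 7 were lower and 2 higher (median −2.03, −1.29 at the bound; 2 and 1 with group weights), with 1 higher without G11 or H11. Pou5f1 (Oct4), the core pluripotency factor that fades during gastrulation, had no embryo count and read 1.97, 11.8 and 39.9 CPM in spheroids, at least 5.46-fold lower. Lin28a, an RNA-binding protein of stem cells and early embryos, read 118, 125, 184 and 217 CPM against 115, 196 and 270 and did not pass the test.

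Hox genes gave 2 higher and 5 lower of 11 tested (18.2% and 45.5%, against 20.0% and 22.1% of all genes tested). Their median was −0.74, or −0.64 at the bound, and 1 higher and 0 lower passed with group weights. In edgeR, 1 was higher without F12, G11 or H11. The anterior gene Hoxb1 read 60.7, 69.7, 46.1 and 63.2 CPM against 3.76, 29.9 and 107, and its call (0.82 ± 0.35) was lost without any of F12, G11 or H11. The more posterior Hoxb9, Hoxc8 and Hoxa7 had no embryo count, against spheroid medians of 6.85, 7.53 and 2.74 CPM, and were at least 3.65-fold, 4.45-fold and 1.56-fold lower. Each was also absent from some spheroid library. Hoxaas3, a noncoding RNA that overlaps the Hoxa cluster and cannot be separated from it by unstranded reads, had 2 embryo counts, both in G11, and read 2.47, 49.9 and 137 CPM in spheroids (126-fold lower, counting interval 35 to 1044).

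Genes of neighbouring cell types varied widely among the embryo wells. Of 21 tested endothelial genes 17 were higher in embryo cells (16 with group weights) and none lower, with a median of 2.04, but in none were the groups apart, and without H11 only 7 passed. The list summed to 562, 513, 406 and 1007 CPM against 58, 125 and 553. Kdr, the main VEGF receptor, read 36.9, 40.1, 0.903 and 154 CPM against 0.514, 15 and 54.3. H11 alone was above the spheroid range and G12 was near 0, and the difference (1.69 ± 0.50, edgeR adjusted p = 0.0062) was lost without H11 (adjusted p = 0.54) and with group weights in limma (adjusted p = 0.44). Etv2, the master factor of the endothelial and blood lineages, had the same pattern, with 20.7, 42.3, 0 and 129 CPM against 0, 5.9 and 48.1. Egfl7, a secreted endothelial protein, kept its call in all 20 alternatives tried for it, with 104, 82.3, 183 and 231 CPM against 3.6, 27.2 and 106 (2.03 ± 0.33, edgeR adjusted p = 2.1e-06).

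Globin reads were seen in a single embryo well. F12 contained 412 CPM of Hba-x, 394 CPM of Hbb-bh1 and 410 CPM of Hbb-y, embryonic globins of primitive red cells, and the other 3 wells had 0. Spheroid libraries had no count of either Hbb gene and at most 2.76 CPM of Hba-x. Gata1, the erythroid master factor, was at 0 in all 4 embryo wells. Only 2 genes of the blood list passed the filter, of which Tfrc, the transferrin receptor, was lower (−0.29 ± 0.13), a call lost without G11 or H11. Endoderm and epithelium genes gave 6 higher and 2 lower of 22 (median 0.32; 2 and 0 with group weights), and 3 and 4 without F12. Cldn6, a tight junction protein of embryonic epithelia, read 491, 226, 355 and 6.77 CPM against 7.37, 57.8 and 122. Wells F12, G11 and G12 were above the spheroid range and H11 below it. The edgeR difference (2.18 ± 0.35) did not pass with group weights (limma adjusted p = 0.13). Krt8 and Krt18, the keratins of simple epithelia, lay within the spheroid range in all 4 wells. Of 11 neural and neural crest genes 4 were higher and 4 lower (median −0.02; 3 and 2 with group weights), with 2 and 5 without F12, 2 and 3 without G12, and 4 and 2 without H11. Otx2, a homeobox factor of the anterior embryo, read 11.5, 8.16, 4.52 and 0.752 CPM against 14, 48.8 and 84.2 (−2.92 ± 0.43). Among the 4 higher ones, Pax6, Ednrb and Gbx2 differed by 2.24, 2.13 and 1.37 in mean log2 CPM, embryo minus spheroid. The part of admixed epithelial, endothelial or red cells in the other results was not tested.

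**Figure D2:**
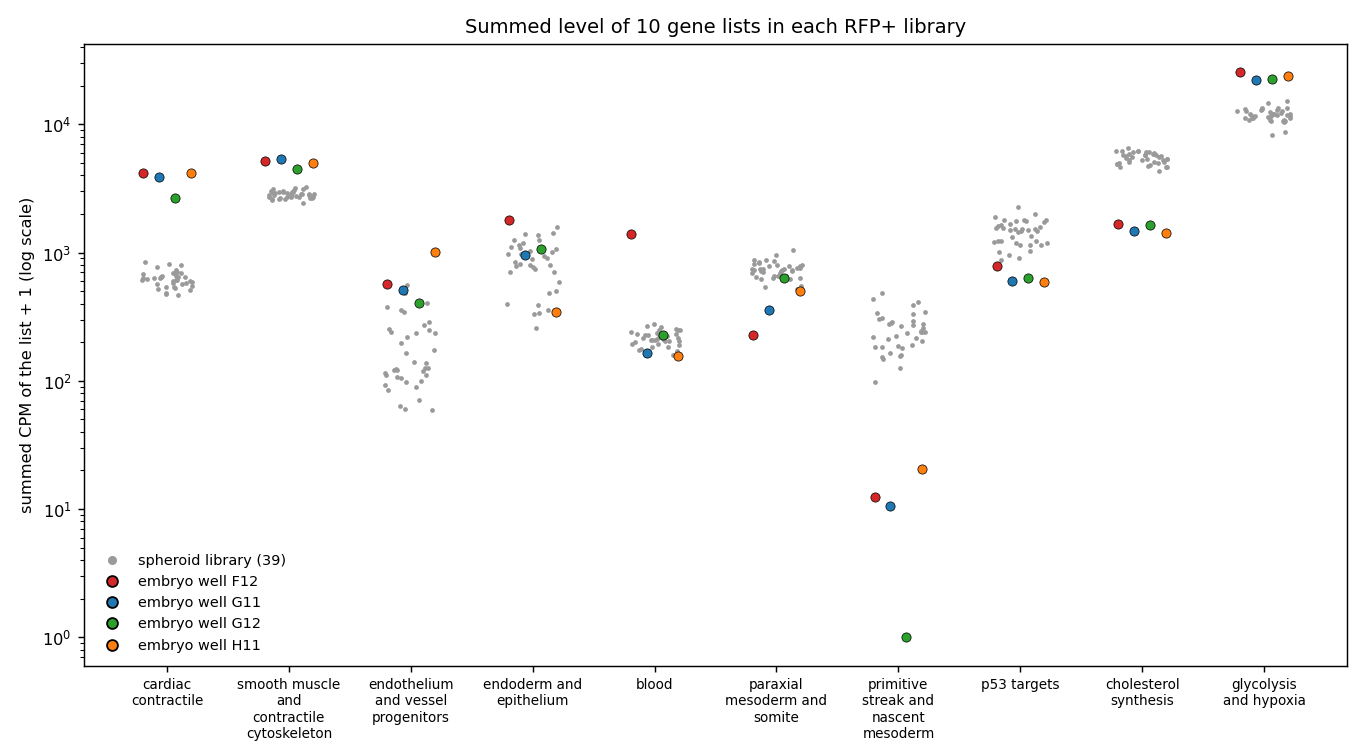
Summed level of 10 gene lists in each RFP+ library, as CPM + 1 on a log axis. Coloured points are embryo wells and grey points spheroid libraries; the cardiac contractile sums of 2666 to 4188 CPM lie above all spheroid libraries, cholesterol synthesis sums lie below, and blood stands out in F12 and endothelium in H11.

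Imprinted genes changed in both directions, several of them without overlap. Of 31 tested, 14 were higher and 10 lower in embryo cells (median 0.51; 13 and 6 with group weights). Without overlap were 7 higher and 6 lower ones, against 2.62% and 2.24% of all genes tested. Grb10, an adaptor protein that restrains growth factor receptors (chr11:11930499-12037428), read 525, 700, 693 and 717 CPM against 0, 3.95 and 18.9. It was 140-fold higher (7.13 ± 0.26, edgeR adjusted p = 5.5e-30). Igf2, the fetal growth factor (chr7:142650768-142666816), read 321, 383, 401 and 645 CPM against 3.1, 29.2 and 72 (3.82 ± 0.28, edgeR adjusted p = 3.2e-17). Igf2r, the receptor that clears Igf2 and is imprinted on the opposite parental copy, read 201, 272, 107 and 278 CPM against 11.7, 26.9 and 59.3 (2.84 ± 0.21). Mest, expressed from the paternal copy in mesoderm, read 1707, 1109, 973 and 1009 CPM against 114, 208 and 354 (2.45 ± 0.14). Cdkn1c, a maternally expressed inhibitor of the cell cycle, read 55.3, 104, 22.6 and 97 CPM against 0, 0.987 and 7.74 (5.48 ± 0.50). These genes of maternal and of paternal expression were all higher in embryo cells without overlap. Lower and likewise apart were Zdbf2 (16.9, 43, 45.2 and 36.1 CPM against 164, 264 and 472; −2.91 ± 0.20), the noncoding RNA Kcnq1ot1 (248, 146, 292 and 136 against 493, 664 and 869; −1.70 ± 0.13) and Nnat (283, 318, 220 and 257 against 498, 997 and 1524; −1.87 ± 0.18). Kcnq1ot1 overlaps Kcnq1 on the other strand, and without strand its reads cannot be told from those of its host. Read counts give no allele, so imprinting itself was not measured. The wider IGF list, which shares Igf2 and Igf2r, gave 8 higher and 3 lower of 18 (median 0.30; 5 and 1 with group weights, 6 and 5 without G11). Igfbp4, an IGF-binding protein, read 260, 165, 176 and 262 CPM against 40.8, 81.7 and 118 (1.40 ± 0.15). The list of DNA methylation genes gave 2 higher and 5 lower of 15 (median −0.16; 1 and 3 with group weights, 1 and 6 without H11). Dnmt3b, a de novo methyltransferase, read 76.8, 74.9, 58.7 and 85.8 CPM against 77, 140 and 244 (−0.95 ± 0.19). Germline genes held silent by methylation gave 6 lower and none higher of 11 (median −2.57, −1.45 at the bound) and none with group weights.

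**Figure D3:**
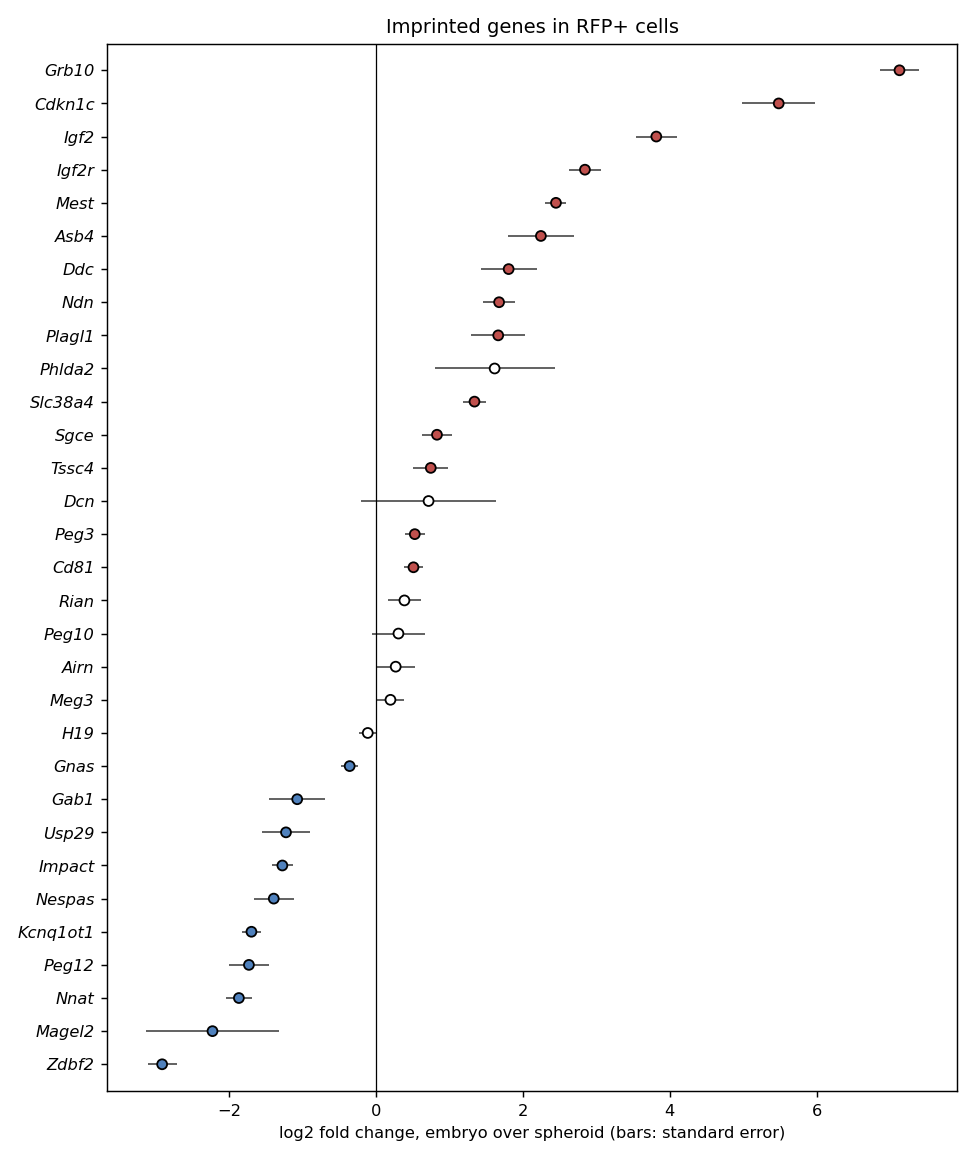
Log2 fold change of the 31 tested imprinted genes, embryo over spheroid RFP+ cells, with standard errors. Red points are genes higher in embryo cells at an adjusted p under 0.1, blue points lower ones and open points those that did not pass; Grb10 lies at 7.13 and Zdbf2 at −2.91.

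Cholesterol synthesis genes had the largest share of lower members among the 33 lists. Of 23 tested genes 22 were lower and none higher (18 lower with group weights), with a median of −1.55. In 11 of the 23 every embryo well was below every spheroid library, against 2.24% of all genes tested. The list summed to 1667, 1463, 1651 and 1410 CPM against 4298, 5430 and 6588. Hmgcs1, the enzyme that condenses acetyl units at the entry to the pathway, read 178, 198, 255 and 169 CPM against 1020, 1387 and 1716, 6.90-fold lower (−2.79 ± 0.12, edgeR adjusted p = 1.1e-26). Msmo1, a sterol demethylating oxidase late in the pathway, read 153, 102, 201 and 63.2 CPM against 564, 770 and 997 (−2.58 ± 0.16). These genes answer to the sterol-regulated transcription factor SREBP2, which binds sterol regulatory elements. One exact form of that element, TCACNCCAC, was searched on both strands in the same 250 bases. It was found in 1 of 17 cholesterol genes with a promoter in the RefSeq set and in 331 of 27025 in all (1.22%), and other forms were not searched. The Hmgcs1 promoter (GRCm38.p6, chr13:119690101-119690350, plus strand) is printed with the element in capitals, from −137.
Hmgcs1: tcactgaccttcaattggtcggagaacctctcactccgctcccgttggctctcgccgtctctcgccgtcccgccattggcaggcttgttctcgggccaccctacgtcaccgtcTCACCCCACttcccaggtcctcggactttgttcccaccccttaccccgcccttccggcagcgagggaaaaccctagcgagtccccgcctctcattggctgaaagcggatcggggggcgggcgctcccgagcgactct

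**Figure D4:**
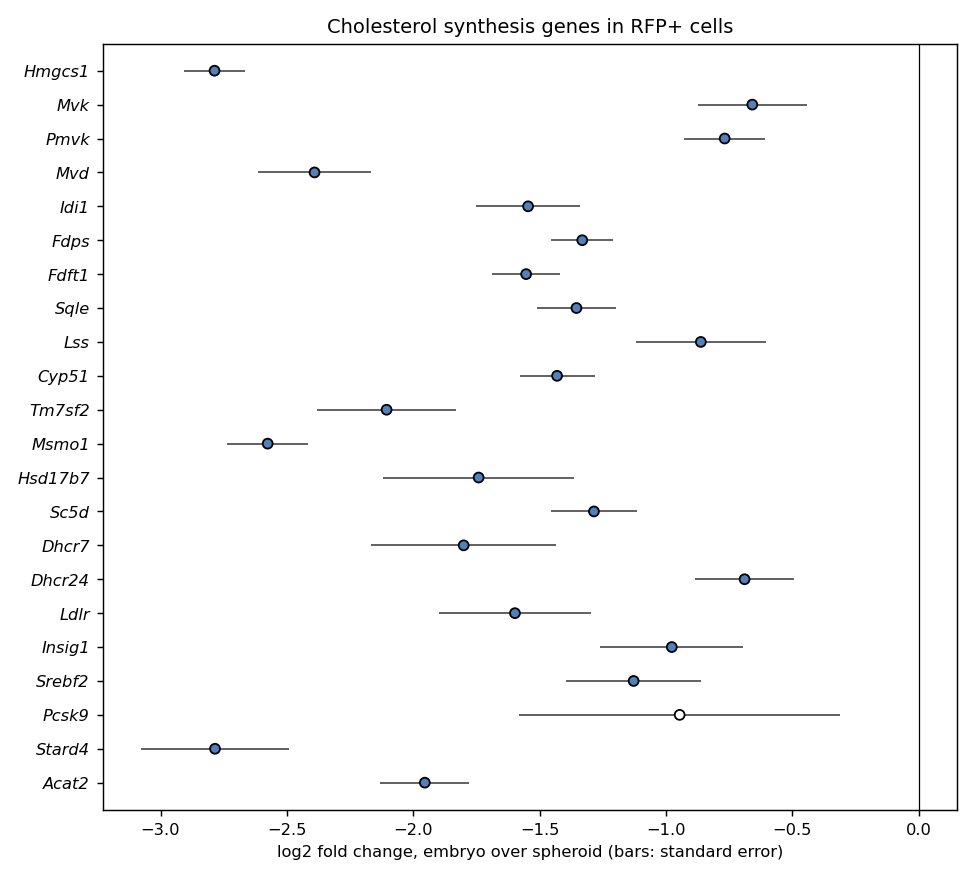
Log2 fold change of 22 of the 23 tested cholesterol synthesis genes, embryo over spheroid RFP+ cells, with standard errors. Blue points are genes lower in embryo cells at an adjusted p under 0.1 and the open point did not pass; the median over the 23 is −1.55.

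Glycolysis and hypoxia genes were mostly higher, 18 of 31 tested against 3 lower (median 0.66; 14 and 0 with group weights). The list summed to 25450, 22002, 22660 and 23788 CPM against 8312, 11801 and 15293. Ldha, which turns pyruvate into lactate, read 10536, 9300, 8848 and 9459 CPM against 2474, 3438 and 4757, a 2.78-fold difference without overlap (1.48 ± 0.08, edgeR adjusted p = 6.6e-22). Tpi1, the triose phosphate isomerase, read 2810, 2635, 2794 and 2822 CPM against 995, 1562 and 1950 (0.81 ± 0.08). Gapdh was higher by a similar step (1.00 ± 0.11), although it and Tpi1 have processed copies in the genome that could take some of their reads. The hypoxia and stress genes Aldoc, Ndrg1 and Ddit4 were the 3 lower members, with spheroid medians of 37.6, 47.3 and 8.31 CPM, and none passed with group weights. Nuclear genes of the respiratory chain gave 14 higher and 10 lower of 59 (23.7% and 16.9%), near the shares of all genes tested. Their median was 0.02, and 10 and 5 passed with group weights, or 17 and 5 in edgeR without F12.

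Targets of p53 were lower on balance, 15 of 26 against 1 higher (median −0.90; 5 and 0 with group weights). They summed to 782, 601, 636 and 583 CPM against 872, 1494 and 2273. Ccng1, cyclin G, read 36.1, 20, 0 and 28.6 CPM against 64.1, 152 and 310 (−2.87 ± 0.31, edgeR adjusted p = 6.8e-11). Trp53inp1, a p53-induced nuclear protein, read 29.2, 11.9, 2.71 and 15 CPM against 61.3, 139 and 302 (−3.31 ± 0.38). Pmaip1 (Noxa), a trigger of apoptosis, had 1 embryo count, in F12, and read 7, 56.5 and 134 CPM in spheroids, 284-fold lower with a counting interval of 50.9 to 11215. All 3 were apart from the spheroid libraries. The 1 higher member, the exonuclease gene Aen, read 60.7, 51.2, 4.52 and 60.9 CPM against 9.37, 26.3 and 54.8, and lost its call without F12, G11 or H11. The ATF4 list gave 4 higher and 11 lower of 27 (median −0.27; 3 and 4 with group weights). Phgdh, the first enzyme of serine synthesis, was higher (1.01 ± 0.14), while Psat1, the next enzyme, and Asns, which makes asparagine, were lower (−0.75 ± 0.14 and −0.81 ± 0.16).

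Matrix and mesenchyme genes gave 20 higher and 4 lower of 38 (median 0.75; 16 and 3 with group weights). Col18a1, a basement membrane collagen, read 167, 136, 131 and 244 CPM against 11.4, 32 and 65.7 (2.36 ± 0.21), and Sparc, a collagen-binding matrix protein, read 249, 243, 255 and 138 against 45.3, 67.6 and 119 (1.61 ± 0.16), neither with overlap. Cdh2 (N-cadherin) was lower (−1.06 ± 0.24). Genes of the cell cycle changed in both directions. Of 54 G2 and M phase genes 22 were higher and 12 lower (40.7% and 22.2%), so the higher share exceeded the 20.0% of all genes tested. Their median was 0.12, and 12 and 4 passed with group weights. The edgeR counts were 15 and 12 without G11, and 15 and 13 without G12. Of 42 S phase genes 8 were higher and 12 lower (median −0.15; 3 and 4 with group weights), or 4 and 13 without F12. Among them Mcm7, a subunit of the replicative helicase, read 642, 555, 507 and 618 CPM against 242, 400 and 487 (0.54 ± 0.08), and Pcna, the sliding clamp of the same replication forks, was lower (−0.34 ± 0.08). BAF chromatin remodelling subunits gave 4 and 4 of 24 (median −0.04; 1 and 2 with group weights, 1 and 4 without G12), lysosomal genes 5 and 5 of 30 (median −0.10; 4 and 2, 6 and 3 without G12, 8 and 4 without H11), and immediate early and heat shock genes 5 and 5 of 21 (median 0.02; 4 and 1, 5 and 3 without G11). Ribosomal protein genes gave 15 higher and 22 lower of 74 (median −0.03; 7 and 18 with group weights). They turned to 23 and 11 without F12 and to 8 and 24 without H11, and F12 had the lowest sum, 52986 CPM, against 75518 to 80147 in the other embryo wells and 61319 to 85152 in spheroids.

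**Figure D5:**
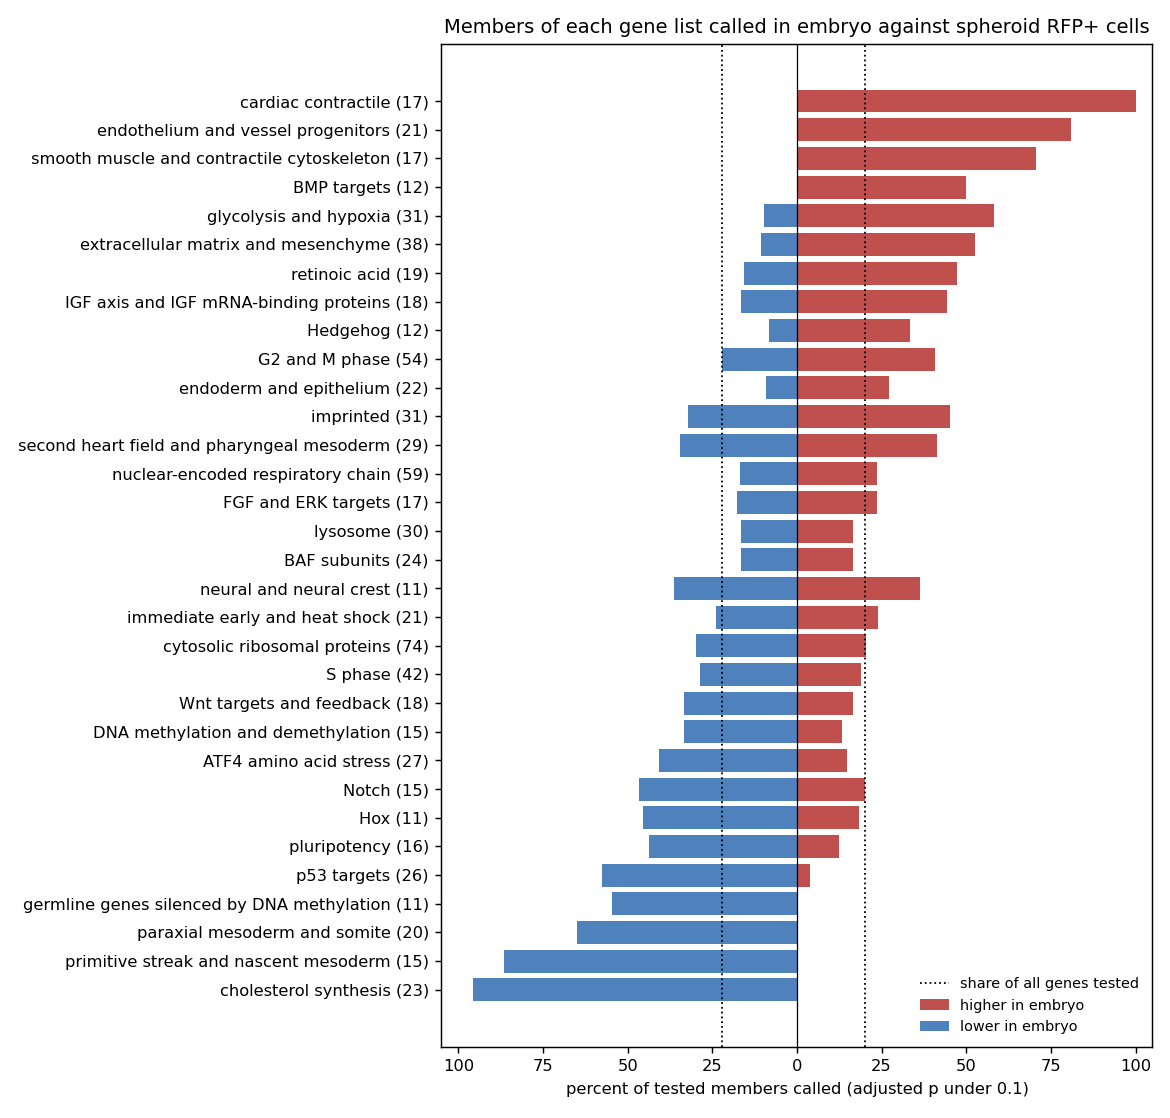
Share of tested genes in each list, for lists with at least 5 tested genes, with an adjusted p under 0.1 in edgeR, higher in embryo cells to the right and lower to the left, in percent, with the number tested in brackets. Dotted lines mark the shares over all genes tested, 20.0% and 22.1%; cardiac contractile genes are higher in 17 of 17 and cholesterol synthesis genes lower in 22 of 23.

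The embryo-spheroid difference of RFP+ cells was last set beside that of Hcn4-GFP+ cells, by the interaction term of limma with group weights. It passed for 1553 of 12088 genes (12.8%), with 1077 differences more positive in RFP+ cells and 476 less so, around a median shift of 1.65 on the log2 scale over all genes. The embryo GFP+ wells detected only 6189 to 8302 genes, fewer than any embryo RFP+ well (10263 to 13052), and the part of that in the shift was not tested. Actc1 was higher in embryo cells of both populations, by a fitted 4.71 on the log2 scale in RFP+ and 11.64 in GFP+ cells, a gap of −6.92 (limma adjusted p = 1.3e-15). Its means, embryo against spheroid, were 399 and 18.2 CPM in RFP+ and 15036 and 21.9 CPM in GFP+ cells, a smaller gap than the fitted one. Nkx2-6 had no count in any GFP+ well of either source, so its RFP+ difference, fitted as 6.39 above the GFP+ one (limma adjusted p = 0.019), rests on zeros in the GFP+ wells. Grb10 was higher in the embryo cells of both populations, by 7.72 and 6.78.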

How the data were processed

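RNA-seq had been run on wells of 10 sorted cells. The authors trimmed reads with Trimmomatic 0.36, aligned them to mm10 with HISAT2 2.0.4 and counted them per gene with featureCounts 1.5.2 (Subread), and the deposited values are raw counts with no normalization. The annotation release and strand setting are not given in the sources used here. From these counts, 24399 of 24514 gene symbols were matched, by symbol (23590) or synonym (398) in RefSeq (GRCm38.p6) or by GENCODE name (411). The 23281 autosomal genes were kept. Sex-chromosome genes were left out because the embryos' sex is not given. The spheroid wells of columns 3 and 4 in 7 rows were summed.

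Embryo and spheroid RFP+ libraries (4 and 39) were compared with edgeR 4.0.16 (quasi-likelihood test, TMM, filterByExpr with a minimum count of 10, R 4.3.3) and Benjamini-Hochberg adjustment over all genes tested, called under 0.1. Errors are SE. Alternatives were limma 3.58.1 (voom, 1 weight per group), DESeq2 1.42.0, other scalings and filters, and leaving out each embryo well. Single genes were also tested by two-sided exact permutation over 123410 splits, whose smallest p is 1.62e-05, adjusted over 179 genes. On simulated data with a wider spread in the embryo group, both model tests made more false calls than the threshold allows, edgeR more than limma with group weights. The simulated spread of both groups was larger than that measured here (coefficients of variation of 55.1% and 32.1%), so the rate of false calls in these data was not measured. Named genes were 5 markers, 12 leading genes per direction (adjusted p under 0.1, mean of at least 20 CPM, every embryo well beyond the 5th or 95th percentile of the spheroid libraries), and from each of 33 lists up to 3 called genes per direction of smallest adjusted p, and up to 3 of highest level in the lists of other cell types. Genes named outside this rule (those with a promoter match, Ldb3, Gata1, Hbb-bh1 and the shared Tpm1) were chosen after their values were seen. Some genes of the lists are not reported here. The members and lists were chosen with earlier results of these data known. Intervals and floors (3 counts per library) cover counting error only.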

Additional observations from a re-analysis of the deposited data

Results flagged for a closer look

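Among 62 groups of 4 embryo wells examined (named leading genes and list sums), 12 held a well whose gap to its neighbour was most of the group's range (Dixon's 95% limit). Chance gives about 1 in 20 only for independent values of a normal spread. Genes near 0 and lists that share members do not meet that condition, so no excess of odd wells is read from this count. Of the leading genes, Grb10 was lowest in F12 (525 CPM), while G12 was highest for Dpep1 (43.3 CPM) and lowest for Tnc (41.5 CPM) and Myl4 (74.1 CPM). In all 4 genes the odd well was still above the spheroid range. For T in H11 (0.752 CPM), Pmaip1 in F12 (0.768 CPM), Hoxaas3 in G11 (1.48 CPM) and Gsn, an actin-severing protein, in G11 (2.23 CPM), a well with 1 to 3 counts stood beside 3 wells at 0. Such a group always passes the limit, however few the counts. The summed blood list was 1405 CPM in F12 against 156 to 225 in the other wells, and the ribosomal protein list 52986 CPM in F12. The germline list was lowest in G11 (12.6 CPM) and the DNA methylation list highest in H11 (1849 CPM).

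For 9 of the markers and leading genes in the embryo direction, the embryo-spheroid difference was not the same in RFP+ and GFP+ cells by the limma interaction term with group weights, given as the RFP+ log2 difference minus the GFP+ one. The fitted difference was smaller in RFP+ cells for the muscle genes Actc1 (−6.92), Ankrd1 (−5.38), Myl4 (−3.58) and Acta2 (−1.86). Relative to the median shift of 1.65 over all genes, these were −8.58, −7.03, −5.24 and −3.51. Their GFP+ means were 15036, 2730, 2080 and 6414 CPM in embryo wells against 21.9, 0.605, 16.5 and 59.1 in spheroids. Their RFP+ means were 399, 71.3, 151 and 582 CPM against 18.2, 0.153, 2.79 and 11.2. The fit averages log levels, so its gaps can differ in size from those of the means. The fitted difference was larger in RFP+ cells for Nkx2-6 (6.39), Pyy (5.97), Dpep1 (5.81) and Tnc (3.94), or 4.73, 4.32, 4.16 and 2.29 relative to the median shift. For Tnc the means do not show this gap. They were 72.0 CPM in embryo against 0.798 in spheroid RFP+ cells, and 235 against 2.49 in GFP+ cells. Nkx2-6 and Dpep1 had no count in any embryo GFP+ well, so their gaps depend on the fit's handling of zeros and are no bound. Grb10 gave 0.94 (adjusted p = 0.083), which becomes −0.71 relative to that shift.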

How the results depend on the processing

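The count of called genes (4460, with 2121 higher and 2339 lower) was moved by over 1.5 times under the following alternatives. limma with group weights called 1983 genes (1223 higher, 760 lower), of which 1969 were also called by edgeR in the same direction, and a test against a 1.5-fold change called 1400 (659 higher, 741 lower). Leaving out each embryo well gave 3842 to 4156 calls, lowest without G12, and DESeq2 called 4734 of 12710. The share of calls that were higher was 47.6%, against 61.7% with group weights, 50.8% with DESeq2 size factors and 44.7% with total counts. The interaction with GFP+ cells passed for 1553 genes in limma, 1553 to 1901 without each embryo well, 1417 with the shallowest spheroid GFP+ well kept, and 6490 with 1 dispersion in edgeR. Of 176 named genes fitted, 173 were called, none reversed in any alternative, and 54 lost their call with group weights and 10 to 14 without each embryo well. The cause of these shifts was not tested. At 4 wells of 10 cells, a gene without embryo counts is limited to about 2.37 CPM. No paired analysis was possible because the labels carry well positions and no replicate number shared by embryo and spheroid wells.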
